A study of Mus musculus with 9 samples.

Results

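The genes described are those of the Ras to ERK cascade, a relay of small GTPases and protein kinases. They are the Ras genes Hras and Nras, the RAF kinases Araf and Braf, the MEK kinases Map2k1 and Map2k2, and the ERK kinase Mapk3. They were found by gene symbol in the array's annotation, and every probe set with that symbol alone was kept. Of the 7 listed genes, 5 had probe sets, 20 in all: 3 for Nras, 5 for Araf, 9 for Braf, 1 for Map2k1 and 2 for Map2k2. Hras and Mapk3 had 0 probe sets under their symbols and were not analysed here. The array's table held 18193 genes with a probe set of their own, of which 12167 passed a filter on dim genes, all 5 cascade genes among them.

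RNA of 9 mouse oral tumors was measured, with 1 Affymetrix expression array per tumor. By genotype label there were 3 p53R172H/- tumors, with the missense allele and no other p53, 3 p53R172H/+ tumors, with the missense and a wild-type allele, and 3 p53-/- tumors, without p53. All mice were 1 year old, and by the series' title Ras activation was shared by all the tumors. The strain names begin with a K that the labels do not explain. Which Ras gene was activated, and with which promoter or recombinase, was not given in the sources used here, so an activated allele's transcript cannot be told apart from the normal one. The labels do not state that each tumor is from its own animal, and p-values therefore reflect tumor to tumor spread only. The question put to these genes was whether their transcript levels differ with the p53 genotype.

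In this cascade a growth factor receptor loads Ras with GTP, and Ras then draws a RAF kinase to the membrane. RAF phosphorylates the paired kinases MEK1 and MEK2, which in turn phosphorylate ERK1 and ERK2, and these act on transcription factors and cytoplasmic targets. The flow is set mainly by GTP loading, phosphorylation and feedback on the proteins, so transcript levels of the kinases are only one of its layers. Activation of this cascade is a known driver of squamous tumors of mouse skin and oral epithelium.

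The arrays were alike in brightness, with median signals of 109 to 123 units. The squamous epithelium markers, 11 of 12 tested, had mean log2 signals of 13.15 to 13.29 in p53R172H/- tumors, 13.14 to 13.38 in p53R172H/+ tumors and 12.94 to 13.23 in p53-/- tumors. Skeletal muscle markers, 12 of 12 tested, ranged from 6.61 to 10.83 in p53R172H/- tumors, from 6.39 to 8.45 in p53R172H/+ tumors and from 7.66 to 8.42 in p53-/- tumors. The highest 2 values were those of p53R172H/- tumors 2 and 3. Salivary gland markers, 3 of 8 tested, had means of 8.21 to 8.55 in p53R172H/- tumors, 8.51 to 8.56 in p53R172H/+ tumors and 8.59 to 8.86 in p53-/- tumors, so that by this mean every mutant tumor lay below every p53-/- tumor. Taken singly, Aqp5, Bhlha15 and Lpo each overlapped between mutant and p53-/- tumors. Lpo was highest in p53R172H/+ tumor 3, at 420 units. Leukocyte markers, 6 of 11 tested, had means of 10.39 to 11.16 in p53R172H/- tumors, 10.97 to 11.14 in p53R172H/+ tumors and 10.3 to 10.75 in p53-/- tumors, and those of all p53R172H/+ tumors were above those of all p53-/- tumors. None of the 6 markers separated these 2 groups alone. Csf1r gave 938, 866 and 979 units in p53R172H/+ tumors and 1006.5, 926 and 961 in p53-/- tumors. Fibroblast, endothelium, adipose and nerve markers overlapped between each mutant group and the p53-/- tumors. The part of salivary gland cells and leukocytes in the differences below was not tested. In bulk tumors, fewer cells of a type and less RNA per cell cannot be told apart. RNA integrity was read as the log2 ratio of 3 prime over 5 prime control signals, which is larger in more degraded RNA. It was 0.14, 0.295 and 0.315 in p53R172H/- tumors, 0.18, 0.27 and 0.25 in p53R172H/+ tumors, and 0.36, 0.40 and 0.265 in p53-/- tumors. The mean over all 6 p53R172H tumors was 0.10 below that of p53-/- tumors (exact two-sided permutation test, p = 0.0952).

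At their brightest probe sets, 4 of the 5 genes differed by at most 1.15-fold from p53-/- tumors in both mutant groups. Map2k2, which encodes MEK2, had the largest difference of the 5, 1.30-fold lower in p53R172H/- tumors and 1.17-fold lower in p53R172H/+ tumors. In each of the 4 comparisons 0 members had an adjusted p under 0.05 (limma, Benjamini-Hochberg over all 12167 genes), beside 0% of all genes tested. The smallest adjusted p of a member was 0.214. Some less bright probe sets of Nras, Araf and Braf had larger positive log2 differences from p53-/- tumors than the brightest ones had.

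**Figure D1:**
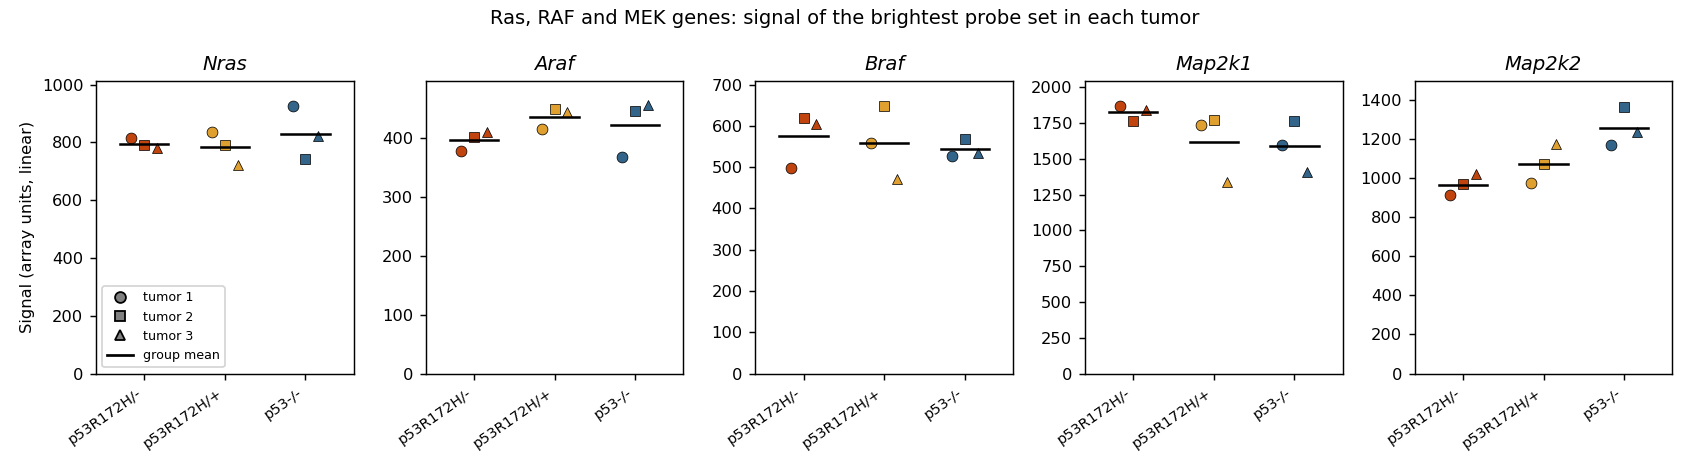
Signal of the brightest probe set of each gene in the 9 tumors, in linear array units from 0, with groups from left to right p53R172H/-, p53R172H/+ and p53-/-. Symbols mark the tumor number, which the labels do not say pairs tumors across groups, and black lines are group means. The Map2k2 points of the p53R172H/- tumors, 912 to 1020.3, all lie below those of the p53-/- tumors, 1168 to 1364, while Nras and Braf points overlap between all groups.

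Nras, the only one of the listed Ras genes with probe sets here, encodes a GTPase that is farnesylated and palmitoylated to reach membranes. Its brightest probe set, 1454060_a_at, gave 815, 790.1 and 780.2 units in p53R172H/- tumors, 835, 792 and 721 in p53R172H/+ tumors, and 927, 744 and 821 in p53-/- tumors. The p53-/- tumors held both the highest value and one of the lowest, and no group stood apart. The log2 difference from p53-/- was -0.057 ± 0.10 (SE, 95% interval -0.29 to 0.17) in p53R172H/- tumors and -0.083 ± 0.10 (interval -0.31 to 0.15) in p53R172H/+ tumors. Adjusted p in limma was 0.797 in p53R172H/- tumors and 0.774 in p53R172H/+ tumors, and standard errors follow the sign ± at all log2 differences below.

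A second Nras probe set, 1422687_at, was as even. It read 890.45, 809 and 800.0 units in p53R172H/- tumors, 874, 749 and 673 in p53R172H/+ tumors, and 903, 710.4 and 802 in p53-/- tumors. The groups overlapped throughout. The third, 1422688_a_at, was designed from the same sequence record. It read 742, 595 and 633 units in p53R172H/- tumors, 662, 679 and 606 in p53R172H/+ tumors, and 551, 466 and 637 in p53-/- tumors. Here p53-/- tumors 1 and 2 had the lowest values of the 9, while p53-/- tumor 3 lay among the mutant tumors. Its log2 difference was 0.26 ± 0.13 in p53R172H/- tumors (limma over 34945 probe sets, adjusted p 0.455) and 0.25 ± 0.13 in p53R172H/+ tumors (adjusted p 0.589). Without p53-/- tumor 2 these were 0.14 in p53R172H/- tumors and 0.13 in p53R172H/+ tumors.

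Araf encodes a RAF kinase with weak activity of its own that pairs with the other RAF kinases. Its brightest probe set, 1426602_at, gave 379, 402 and 411 units in p53R172H/- tumors, 416, 451 and 445 in p53R172H/+ tumors, and 368, 447 and 456 in p53-/- tumors. All p53R172H/- tumors lay below all p53R172H/+ tumors, and the p53-/- tumors spanned both. Between the mutant groups, p53R172H/- minus p53R172H/+, the log2 difference was -0.14 ± 0.10 (interval -0.37 to 0.10, adjusted p 0.949). Araf was the one member of 5 whose mutant groups did not overlap, against 11.9% of all genes tested. Against p53-/- tumors its differences were -0.087 ± 0.10 in p53R172H/- tumors and 0.051 ± 0.10 in p53R172H/+ tumors.

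The other bright Araf probe set, 1435566_s_at, ran differently. The suffix _s_at marks a probe set that may bind more than one transcript. It read 353, 305 and 264 units in p53R172H/- tumors, 326, 294 and 249 in p53R172H/+ tumors, and 248, 215 and 259 in p53-/- tumors. Each p53R172H/- tumor was above each p53-/- tumor, the closest pair being 264 and 259, and 1 p53R172H/+ tumor fell among the p53-/- tumors. The log2 difference was 0.35 ± 0.14 in p53R172H/- tumors (unadjusted p 0.0478, adjusted p 0.398) and 0.26 ± 0.14 in p53R172H/+ tumors (adjusted p 0.598), where it was 0.17 without p53R172H/+ tumor 1. The remaining 3 Araf probe sets had mean signals of 54.8 to 113 and lay under the filter. The filter stood at a mean log2 signal of 6.821. Just outside it was Araf 1445693_at at 6.815, and the nearest probe set inside it was Braf 1425693_at at 7.18.

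Braf encodes the RAF kinase with the highest basal activity, a frequent target of activating mutations in other tumor types. At its brightest probe set, 1435434_at, the signals were 498, 620.0 and 606 units in p53R172H/- tumors, 559.5, 648 and 471 in p53R172H/+ tumors, and 528, 569 and 535 in p53-/- tumors. The p53R172H/+ tumors held both the highest and the lowest value, so the groups overlapped. The log2 difference was 0.074 ± 0.13 (interval -0.23 to 0.37, adjusted p 0.798) in p53R172H/- tumors and 0.030 ± 0.13 (interval -0.27 to 0.33, adjusted p 0.944) in p53R172H/+ tumors. The next brightest, 1435480_at and 1458641_at, differed from p53-/- tumors by -0.059 to 0.083 on the log2 scale in the mutant groups.

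The other 3 Braf probe sets above the filter were all brighter on average in the mutant groups. Of these, 1447940_a_at gave 309.95, 315 and 265 units in p53R172H/- tumors, 319.8, 336 and 251 in p53R172H/+ tumors, and 219.8, 200.04 and 247 in p53-/- tumors. Every mutant tumor was above every p53-/- tumor, although p53R172H/+ tumor 3 and p53-/- tumor 3 were only 251 and 247. Such a gap on the higher side was found for 2.63% of all probe sets. The log2 difference was 0.42 ± 0.14 in p53R172H/- tumors (unadjusted p 0.0199, adjusted p 0.360) and 0.44 ± 0.14 in p53R172H/+ tumors (unadjusted p 0.0163, adjusted p 0.462).

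Its partner 1447941_x_at comes from the same sequence record and is not independent of it. It read 209.6, 204 and 188 units in p53R172H/- tumors, 204, 210.4 and 157 in p53R172H/+ tumors, and 176, 106 and 166 in p53-/- tumors. The p53-/- tumor 2 had the lowest signal, as it did at 1447940_a_at. The third, 1425693_at, read 193, 157 and 144 units in p53R172H/- tumors, 166.2, 166.4 and 129.9 in p53R172H/+ tumors, and 145, 95.5 and 133 in p53-/- tumors, where the same p53-/- tumor was lowest and the other two overlapped the mutant tumors. Their log2 differences were 0.46 ± 0.21 and 0.41 ± 0.20 in p53R172H/- tumors, and 0.37 ± 0.21 and 0.32 ± 0.20 in p53R172H/+ tumors, with adjusted p of 0.426 to 0.639. Without p53-/- tumor 2 both were 0.23 in p53R172H/- tumors and 0.14 in p53R172H/+ tumors. The last 3 Braf probe sets had mean signals of 50.1 to 74.8, under the filter.

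Counted over all 20 probe sets, 4 were higher and 1 lower without overlap in p53R172H/- than in p53-/- tumors, against 7.5% and 10.5% of all probe sets. At an unadjusted p under 0.05 the counts were 2 higher and 1 lower, against 5.59% and 6.91%. Against p53-/- tumors, the p53R172H/+ tumors had 1 probe set that was higher without overlap, against 5.51% of all probe sets, and 1 higher and 1 lower at an unadjusted p under 0.05, against 4.13% and 5.19%. These comparisons share the p53-/- arrays. The median log2 difference of the 20 probe sets was 0.063 in p53R172H/- tumors and 0.027 in p53R172H/+ tumors, beside -0.011 in p53R172H/- tumors and -0.012 in p53R172H/+ tumors over all probe sets.

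**Figure D2:**
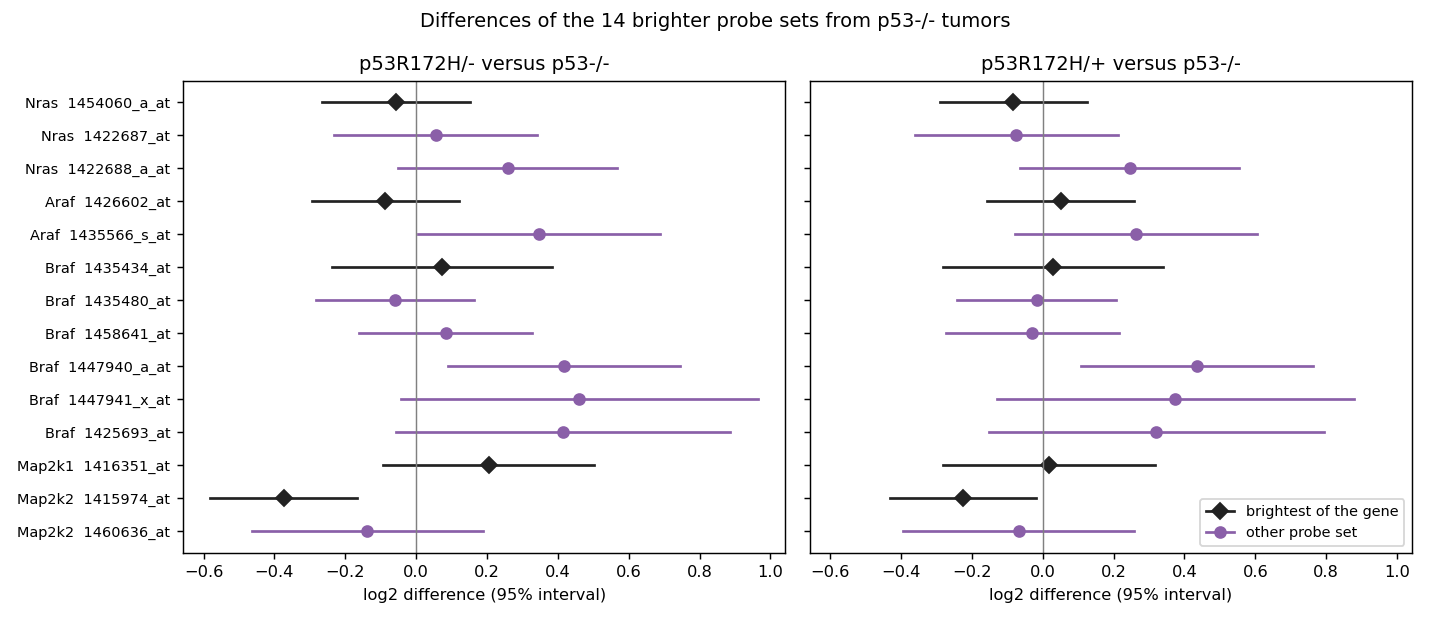
Log2 difference from p53-/- tumors of the 14 probe sets above the filter, with 95% intervals from limma over all probe sets, for p53R172H/- tumors on the left and p53R172H/+ tumors on the right. Diamonds are the brightest probe set of each gene and circles the others. Braf 1447940_a_at lies at 0.42 on the left and 0.44 on the right, while the brightest Braf probe set lies at 0.074 on the left and 0.030 on the right.

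Within an array, the signal of one probe set over another removes any factor that scales the whole array. These ratios were chosen after the signals had been seen, and 30 tests were made of them. The log2 ratio of Braf 1447940_a_at to 1435434_at was -0.69, -0.98 and -1.19 in p53R172H/- tumors, -0.81, -0.95 and -0.91 in p53R172H/+ tumors, and -1.26, -1.51 and -1.11 in p53-/- tumors. Only p53R172H/- tumor 3 overlapped the p53-/- tumors. Over both mutant groups the mean difference was 0.37 (exact two-sided permutation test, 6 against 3 tumors, p = 0.0476, adjusted p 0.3). Of the other Braf ratios to 1435434_at, it was -0.090 for 1435480_at and -0.025 for 1458641_at. It was 0.37 for 1447941_x_at and 0.32 for 1425693_at.

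The Nras ratio of 1422688_a_at to 1454060_a_at was -0.14, -0.41 and -0.30 in p53R172H/- tumors, -0.34, -0.22 and -0.25 in p53R172H/+ tumors, and -0.75, -0.68 and -0.36 in p53-/- tumors. Of the mutant tumors only p53R172H/- tumor 2 overlapped the p53-/- tumors, and the mean difference over both groups was 0.32 (exact permutation test, p = 0.0476, adjusted p 0.3). For Nras 1422687_at over 1454060_a_at the difference over both groups was 0.060. For Araf 1435566_s_at over 1426602_at it was 0.32 (exact permutation test, p = 0.167, adjusted p 0.353), and 0.20 without p53-/- tumor 2. The ratios were not refitted with RNA integrity, which was entered as a covariate in the fit of the single probe sets. There the log2 difference from p53-/- in p53R172H/- tumors was 0.088 for Nras 1422688_a_at, 0.16 for Araf 1435566_s_at and 0.31 for Braf 1447940_a_at. In p53R172H/+ tumors these were 0.042, 0.041 and 0.31, and none of the 6 had an adjusted p under 0.8 in that fit.

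Map2k1 encodes MEK1, which phosphorylates both ERK kinases. Its one probe set, 1416351_at, gave 1866, 1768 and 1843 units in p53R172H/- tumors, 1738, 1773 and 1339 in p53R172H/+ tumors, and 1600.2, 1766 and 1408 in p53-/- tumors. The p53R172H/- tumors lay above all p53-/- tumors, with the closest pair at 1768 and 1766. The p53R172H/+ tumors overlapped both other groups, with tumor 3 the lowest of the 9. The log2 difference from p53-/- was 0.20 ± 0.12 (interval -0.076 to 0.48, adjusted p 0.434) in p53R172H/- tumors, where it was 0.12 without p53-/- tumor 3, and 0.018 ± 0.12 (interval -0.26 to 0.30, adjusted p 0.966) in p53R172H/+ tumors.

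Map2k2 encodes MEK2, the partner of MEK1. Its brightest probe set, 1415974_at, gave 912, 970.5 and 1020.3 units in p53R172H/- tumors, 975, 1073.5 and 1174 in p53R172H/+ tumors, and 1168, 1364 and 1234 in p53-/- tumors. All p53R172H/- tumors were below all p53-/- tumors, and of the p53R172H/+ tumors only tumor 3 reached into the p53-/- range, at 1174 against 1168. The mean was 968 ± 54.3 units in p53R172H/- tumors, 1074 ± 99.5 in p53R172H/+ tumors and 1255 ± 99.7 in p53-/- tumors (SD, n = 3 each). Between the mutant groups, p53R172H/- minus p53R172H/+, the log2 difference was -0.15 ± 0.10 (interval -0.37 to 0.076, limma, adjusted p 0.949), and their tumors overlapped.

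Against p53-/- tumors the log2 difference of Map2k2 was -0.37 ± 0.10 (interval -0.60 to -0.15, unadjusted p 0.00428, adjusted p 0.214) in p53R172H/- tumors. In p53R172H/+ tumors it was -0.23 ± 0.10 (interval -0.45 to -0.0015, unadjusted p 0.0488, adjusted p 0.481). For both mutant groups together it was -0.30 ± 0.09 (unadjusted p 0.00667, adjusted p 0.222). Map2k2 was the one member of 5 with an unadjusted p under 0.05 in these comparisons. In p53R172H/+ tumors this call was lost, leaving 0 members, after division of each array by its median, as the mean over probe sets, with no variance trend, with only the arrays compared, and with either the muscle or the RNA integrity covariate. It was lost there too when any 1 tumor was left out other than p53R172H/+ tumor 3 or p53-/- tumor 1. For both mutant groups together it was lost as the mean over probe sets and with the integrity covariate. Of all genes, 15.6% had one for p53R172H/- tumors, 10.3% for p53R172H/+ tumors and 15.9% for both together. In an F test over the 3 genotypes it had an unadjusted p of 0.0132, where 11.2% of all genes had one under 0.05, and an adjusted p of 0.370, beside 0.601 to 0.934 for the other members. Map2k1 and Map2k2 were the members whose p53R172H/- and p53-/- tumors did not overlap, against 22.9% of all genes tested. In p53R172H/+ tumors 0 of the 5 members were apart from the p53-/- tumors, against 15.9%.

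The second Map2k2 probe set, 1460636_at, comes from the same sequence record. It read 534, 631 and 636 units in p53R172H/- tumors, 573, 611 and 708 in p53R172H/+ tumors, and 668, 763 and 559.6 in p53-/- tumors. The p53-/- tumors held the highest value and, in tumor 3, the second lowest, so all groups overlapped. Its log2 difference was -0.14 ± 0.14 in p53R172H/- tumors (adjusted p 0.670) and -0.068 ± 0.14 in p53R172H/+ tumors (adjusted p 0.934). The log2 ratio of 1460636_at to 1415974_at was higher in all p53R172H/- tumors than in all p53-/- tumors. The mean difference was 0.24 there (exact permutation test, p = 0.1, adjusted p 0.3) and 0.16 in p53R172H/+ tumors. Over both mutant groups it was 0.20 (exact permutation test, p = 0.0476, adjusted p 0.3), so the 2 probe sets differed unequally. With RNA integrity as a covariate, the difference of Map2k2 at its brightest probe set was -0.29 in p53R172H/- tumors and -0.12 in p53R172H/+ tumors, and that of 1460636_at was 0.051 in p53R172H/- tumors and 0.16 in p53R172H/+ tumors. With the muscle marker mean as a covariate, Map2k2 differed by -0.41 in p53R172H/- tumors (limma, adjusted p 0.106). Integrity as the covariate instead left 0.704 as the smallest adjusted p of any member for p53R172H/- against p53-/- tumors. Over all genes, 1897 met the unadjusted 0.05 cutoff there with no covariate, 840 with integrity and 2456 with muscle. For both mutant groups together these counts were 1938, 675 and 2349.

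The MEK genes lay on opposite sides of 0 in p53R172H/- tumors. The log2 ratio of Map2k1 to Map2k2 signal was 1.03, 0.87 and 0.85 in p53R172H/- tumors, 0.83, 0.72 and 0.19 in p53R172H/+ tumors, and 0.45, 0.37 and 0.19 in p53-/- tumors. All p53R172H/- tumors were above all p53-/- tumors, and p53R172H/+ tumor 3 matched the lowest p53-/- tumor. The mean difference was 0.58, or 1.49-fold, in p53R172H/- tumors (exact two-sided permutation test, p = 0.1, the smallest that 3 against 3 tumors can give, adjusted p 0.3). It was 0.24 in p53R172H/+ tumors (exact permutation test, p = 0.4, adjusted p 0.522), with values of 0.12 without p53R172H/+ tumor 1 and 0.44 without p53R172H/+ tumor 3, and 0.41 over both mutant groups (exact permutation test, p = 0.0952, adjusted p 0.3). A ratio of 2 probe sets shows unequal change and not which of them changed. Map2k2 was read here at 1415974_at, and the ratio of Map2k1 to 1460636_at was not tested. In p53R172H/- tumors the log2 difference of 1460636_at was -0.14, beside -0.37 at 1415974_at.

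**Figure D3:**
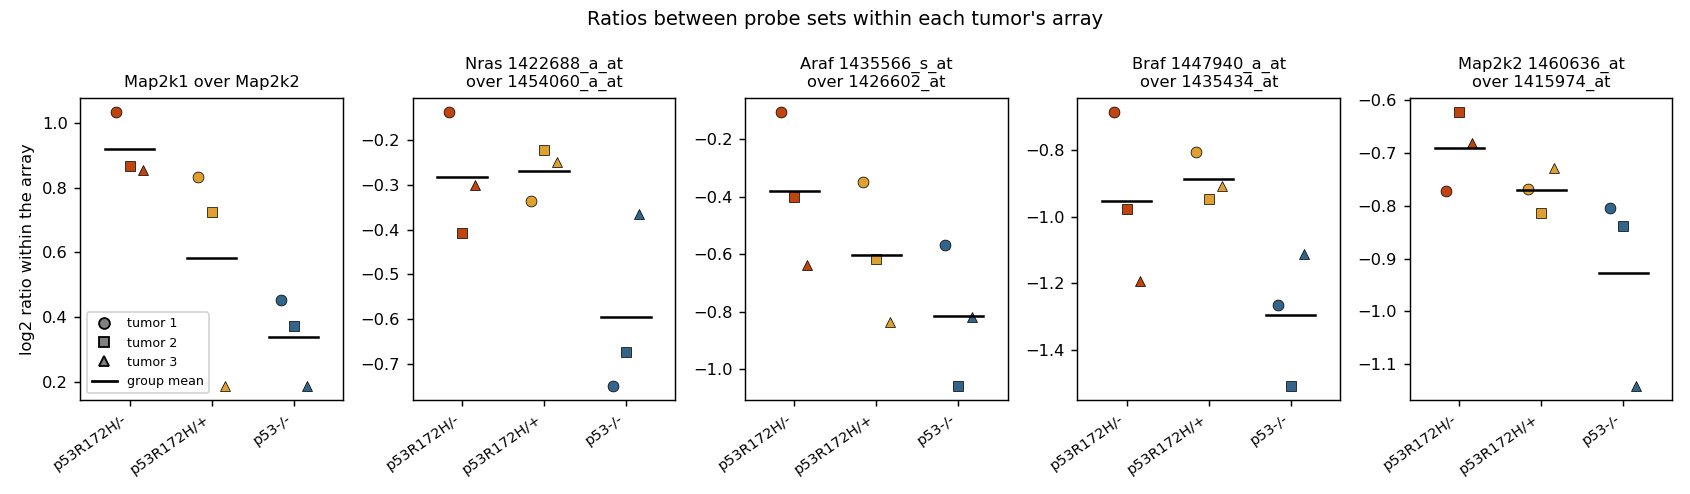
Log2 ratio of 2 probe sets within each tumor's array, for Map2k1 over Map2k2 and for a less bright over the brightest probe set of Nras, Araf, Braf and Map2k2, with groups from left to right p53R172H/-, p53R172H/+ and p53-/-. Where a gene had several less bright probe sets, the one with the largest absolute difference over both mutant groups is shown. Map2k2 in the first ratio is probe set 1415974_at. Symbols mark the tumor number and black lines are group means. Map2k1 over Map2k2 is 0.85 to 1.03 in p53R172H/- tumors and 0.19 to 0.45 in p53-/- tumors.

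The promoters of the MEK genes are shown because at their brightest probe sets these members had p53R172H/- and p53-/- tumors that did not overlap. The same held for 22.9% of all genes tested, and for Map2k1 the closest pair was 1768 and 1766 units. They are the 250 bases upstream of the annotated start in RefSeq, build GRCm38.p6, read 5′ to 3′ on the gene's strand. Capitals mark GC boxes, GGGCGG or CCGCCC on the other strand, a motif bound by Sp1-type factors. All 5 measured members had a promoter in the table. Map2k1 lies at chr9:64253606-64253855 on the minus strand and Map2k2 at chr10:81105665-81105914 on the plus strand.
Map2k1: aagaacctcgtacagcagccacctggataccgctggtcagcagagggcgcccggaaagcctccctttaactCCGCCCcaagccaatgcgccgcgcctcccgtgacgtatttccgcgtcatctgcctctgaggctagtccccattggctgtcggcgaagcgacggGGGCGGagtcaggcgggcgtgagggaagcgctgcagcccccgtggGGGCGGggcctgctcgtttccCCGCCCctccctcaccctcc
Map2k2: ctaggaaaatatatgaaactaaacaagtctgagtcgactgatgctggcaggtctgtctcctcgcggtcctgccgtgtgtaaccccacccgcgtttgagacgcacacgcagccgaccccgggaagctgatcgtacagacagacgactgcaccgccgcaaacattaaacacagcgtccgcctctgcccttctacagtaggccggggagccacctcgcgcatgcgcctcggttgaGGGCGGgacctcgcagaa
The Map2k1 window held 4 GC boxes and 2 CCAAT boxes (CCAAT, either strand) and was 68.4% G or C. The Map2k2 window held 1 GC box and 0 CCAAT boxes and was 59.6% G or C. Among the other members, Nras had 2 GC boxes, Araf 3 CCAAT boxes, and Braf 1 GC box and 2 copies of the cAMP response element (TGACGTCA, the same on both strands). Of all 32851 promoter windows of this length, 32.7% held a GC box, 33.8% a CCAAT box and 1.55% the cAMP response element, and the median G or C content was 52.4%. Overlapping copies of a motif were counted separately, and a match describes the letters only.

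The spread of the members within groups was ordinary or small. The residual SD of the log2 signal was 0.11 for Nras, Araf and Map2k2, which placed each at percentile 20.9 to 21.8 of all genes tested. It was 0.17 for Braf and 0.16 for Map2k1, at percentile 53.1 for Braf and 49.6 for Map2k1, where the median gene had 0.16.

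The genes whose log2 signals were most like each member's over the 9 arrays were found by Pearson's r among 12162 other genes, as a description with no test. All points share the same 9 arrays, and the highest of so many values is large by selection. For Map2k2 they were Dcxr, a reductase of xylulose, with r of 0.971, and Slc66a1, a lysosomal amino acid transporter, with 0.969. For Map2k1 they were Kif21a, a kinesin (0.931), and Odam, an ameloblast-associated protein (0.930). They were Trim12a (0.963) and Tspan15 (0.932) for Nras, Bola1 (0.965) and Arpp19 (0.937) for Araf, and Zcchc2 (0.954) and Trim59 (0.937) for Braf.

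Around the cascade, 9 lists of its regulators and outputs were counted in the same fit, and none of their genes passed an adjusted p of 0.05 in any comparison. The lists were drawn up with earlier results of these data known. In p53R172H/- against p53-/- tumors, all tested genes had a median log2 difference of -0.033, 43.8% lay above 0, and 6.44% were higher and 9.16% lower at an unadjusted p under 0.05. In p53R172H/+ against p53-/- tumors the median was -0.028, 43.9% lay above 0, and 4.75% were higher and 5.6% lower. All 6 mutant tumors lay on one side of all p53-/- tumors for 7.27% of genes.

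Of the Ras relatives, 9 of 9 were tested, with median differences of -0.004 in p53R172H/- tumors and -0.018 in p53R172H/+ tumors. At an unadjusted p under 0.05, 2 were higher and 1 lower in p53R172H/- tumors, and 1 was higher and 1 lower in p53R172H/+ tumors. Rap1b, a Rap GTPase of cell adhesion, gave 2601, 2805 and 2841 units in p53R172H/- tumors, 2593, 2722 and 2513 in p53R172H/+ tumors, and 2250.2, 2116 and 2282 in p53-/- tumors. Every mutant tumor was above every p53-/- tumor. Its log2 difference was 0.31 ± 0.07 in p53R172H/- tumors (adjusted p 0.214) and 0.24 ± 0.07 in p53R172H/+ tumors (adjusted p 0.377). Rras2, a close relative of Ras, differed by 0.49 ± 0.17 in p53R172H/- and 0.36 ± 0.17 in p53R172H/+ tumors. Mras, which with Shoc2 helps to activate RAF, differed by -0.35 ± 0.12 in p53R172H/- and -0.37 ± 0.12 in p53R172H/+ tumors. It is the 1 gene counted as lower in both groups, and its mean signal was 106 units in p53R172H/- tumors, 104 in p53R172H/+ tumors and 135 in p53-/- tumors. Only the p53-/- mean was above the filter of 113 units, so Mras passed the filter through the group in which it was higher and its lower count supports nothing.

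Of 15 adaptors and exchange factors, which link receptors to Ras, 10 were tested. In p53R172H/- tumors 8 were above 0, 3 had an unadjusted p under 0.05 on the higher side and 0 on the lower, and the median was 0.15. In p53R172H/+ tumors 7 were above 0, 1 was higher by that test, and the median was 0.10. The adaptor Crk differed by 0.30 ± 0.08 in p53R172H/- tumors (adjusted p 0.214) and by 0.14 ± 0.08 in p53R172H/+ tumors. Its relative Crkl differed by 0.34 ± 0.11 in p53R172H/- and 0.27 ± 0.11 in p53R172H/+ tumors, and the exchange factor Sos2 by 0.23 ± 0.10 in p53R172H/- and 0.14 ± 0.10 in p53R172H/+ tumors.

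The GTPase-activating proteins, which switch Ras off, had 7 of 9 tested and medians of -0.14 in p53R172H/- tumors and 0.023 in p53R172H/+ tumors. At an unadjusted p under 0.05, 0 genes stood out in p53R172H/- tumors and 1, Rasal1, was lower in p53R172H/+ tumors. Rasal1 gave 295, 284 and 286 units in p53R172H/- tumors, 263, 249 and 291 in p53R172H/+ tumors, and 321, 315 and 332 in p53-/- tumors. All mutant tumors were below all p53-/- tumors, with log2 differences of -0.16 ± 0.09 in p53R172H/- tumors (adjusted p 0.403) and -0.27 ± 0.09 in p53R172H/+ tumors (adjusted p 0.406). Rasa2 differed by 0.14 ± 0.14 in p53R172H/- and 0.26 ± 0.14 in p53R172H/+ tumors, and Rasa4 by -0.20 ± 0.14 in p53R172H/- and 0.023 ± 0.14 in p53R172H/+ tumors.

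The list of Ras membrane attachment, its removal and Ras trafficking had 10 of 10 tested, with 3 above 0 in each mutant group and medians of -0.079 in p53R172H/- tumors and -0.046 in p53R172H/+ tumors. By the unadjusted test 1 was lower in p53R172H/- tumors, 3 were lower in p53R172H/+ tumors and 0 were higher in either. Zdhhc9, a palmitoyltransferase of Ras, differed by -0.21 ± 0.13 in p53R172H/- and -0.36 ± 0.13 in p53R172H/+ tumors, and without p53-/- tumor 2 by -0.076 in p53R172H/- and -0.22 in p53R172H/+ tumors. Lypla2, a thioesterase that can remove palmitate, differed by -0.28 ± 0.10 in p53R172H/- and -0.26 ± 0.10 in p53R172H/+ tumors, and Fntb, the beta subunit of farnesyltransferase, by -0.11 ± 0.13 in p53R172H/- and -0.32 ± 0.13 in p53R172H/+ tumors. Scaffolds and partners of the kinases had 14 of 17 tested, with a median of -0.040 in p53R172H/- tumors, where 1 was higher by that test, and of 0.023 in p53R172H/+ tumors, where 2 were. Lamtor3, a scaffold that binds MEK1, differed by 0.22 ± 0.10 in p53R172H/- and 0.20 ± 0.10 in p53R172H/+ tumors. Iqgap1, which binds RAF, MEK and ERK, differed by 0.32 ± 0.10 in p53R172H/- and 0.31 ± 0.10 in p53R172H/+ tumors, with all mutant tumors above all p53-/- tumors. The 14-3-3 protein Ywhaz, which holds RAF, differed by 0.30 ± 0.21 in p53R172H/- and 0.56 ± 0.21 in p53R172H/+ tumors. Without p53-/- tumor 2 the Ywhaz difference was 0.061 in p53R172H/- and 0.33 in p53R172H/+ tumors, and without p53-/- tumor 3 it was 0.57 in p53R172H/- and 0.83 in p53R172H/+ tumors.

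Downstream, 12 of 14 ERK feedback and output genes were tested. In p53R172H/- tumors 10 were above 0, 3 were higher at an unadjusted p under 0.05 and 0 lower, with a median of 0.24. In p53R172H/+ tumors 11 were above 0, 3 were higher by that test and 0 lower, with a median of 0.26. Spry2, an antagonist of receptor signalling to Ras, differed by 0.62 ± 0.12 in p53R172H/- and 0.97 ± 0.12 in p53R172H/+ tumors, and Dusp6, a phosphatase of ERK from the phosphatase list, by 1.82 ± 0.32 in p53R172H/- and 1.66 ± 0.32 in p53R172H/+ tumors. Both genes were named because they were known from earlier results of these data. Their size therefore supports no contrast with the 5 cascade genes, which differed by -0.37 to 0.20 in p53R172H/- tumors. The smallest adjusted p of the named genes in these 2 comparisons was 0.159, for Spry2 in p53R172H/+ tumors. Ier3, an early response gene, differed by 0.36 ± 0.13 in p53R172H/- and 0.60 ± 0.13 in p53R172H/+ tumors, and Etv5, an ETS transcription factor, by 0.28 ± 0.17 in p53R172H/- (0.14 without p53-/- tumor 2) and 0.46 ± 0.17 in p53R172H/+ tumors.

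The MAP kinase phosphatases had 8 of 12 tested, with a median of -0.013 in p53R172H/- tumors, where 3 were higher and 1 lower by the unadjusted test. The median was 0.085 in p53R172H/+ tumors, where 2 were higher and 1 lower. Dusp16, which acts on JNK and p38, gave 786, 847 and 934 units in p53R172H/- tumors, 667, 813 and 779 in p53R172H/+ tumors, and 1009.9, 1178 and 1262 in p53-/- tumors. All mutant tumors were below all p53-/- tumors, with log2 differences of -0.42 ± 0.12 in p53R172H/- tumors (adjusted p 0.225) and -0.61 ± 0.12 in p53R172H/+ tumors (adjusted p 0.359). Dusp1, a nuclear phosphatase, differed by 0.59 ± 0.18 in p53R172H/- and 0.21 ± 0.18 in p53R172H/+ tumors, where it was 0.034 without p53-/- tumor 1.

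ERK substrates had 6 of 10 tested, with a median of 0.010 in p53R172H/- tumors, where 0 passed the unadjusted test, and of -0.15 in p53R172H/+ tumors, where 1 was lower. Rps6ka3, the kinase RSK2, differed by 0.24 ± 0.12 in p53R172H/- and 0.11 ± 0.12 in p53R172H/+ tumors, Mknk2 by -0.019 ± 0.09 in p53R172H/- and -0.12 ± 0.09 in p53R172H/+ tumors, and the ETS factor Elk4 by 0.039 ± 0.10 in p53R172H/- and -0.23 ± 0.10 in p53R172H/+ tumors. In the parallel MAP kinase cascades 12 of 15 were tested, with a median of -0.056 in p53R172H/- tumors, where 1 was higher and 2 lower by that test. It was -0.032 in p53R172H/+ tumors, where 1 was lower. Mapk13, a p38 kinase, gave 1835, 2042 and 2187 units in p53R172H/- tumors, 2344, 2812 and 2931 in p53R172H/+ tumors, and 2705, 2616 and 2727 in p53-/- tumors. The p53R172H/- tumors were below all the others. Its log2 difference from p53-/- was -0.41 ± 0.10 in p53R172H/- tumors (adjusted p 0.214) and 7e-04 ± 0.10 in p53R172H/+ tumors, and between the mutant groups it was -0.41 ± 0.10 (adjusted p 0.916). The p38 activator Map2k3 differed from p53-/- by -0.30 ± 0.10 in p53R172H/- and -0.18 ± 0.10 in p53R172H/+ tumors, and Mapk9, which encodes JNK2, by 0.36 ± 0.14 in p53R172H/- and 0.28 ± 0.14 in p53R172H/+ tumors.

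Leaving out 1 tumor also moved other named differences from p53-/- by over 1.5 times, among them the following. Of the members, Araf ranged from -0.19 to -0.030 and Braf from 0.016 to 0.17 in p53R172H/- tumors. Nras ranged from -0.16 to -6e-04 in p53R172H/+ tumors. In p53R172H/- tumors Braf 1458641_at ranged from 0.021 to 0.16 and Map2k2 1460636_at from -0.26 to -0.032. In p53R172H/- tumors Sos2 was 0.15 without p53-/- tumor 1, and Rasa4 was -0.10 without p53-/- tumor 2. Rasa2 was 0.067 without p53-/- tumor 3 and 0.24 without p53-/- tumor 2. Elk4 was 0.011 without p53R172H/- tumor 3 and 0.093 without p53R172H/- tumor 1. In p53R172H/+ tumors Fntb was -0.20 without p53-/- tumor 2, Mapk9 was 0.43 and Elk4 -0.15 without p53R172H/+ tumor 3. Without p53R172H/+ tumor 1, Rasa2 was 0.14, Lamtor3 0.13, Map2k3 -0.11 and Mknk2 -0.066 in these tumors. Without p53-/- tumor 1, Sos2 was 0.059 and Rps6ka3 0.031 in p53R172H/+ tumors. Dusp1 was 0.38 there without p53-/- tumor 3.

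**Figure D4:**
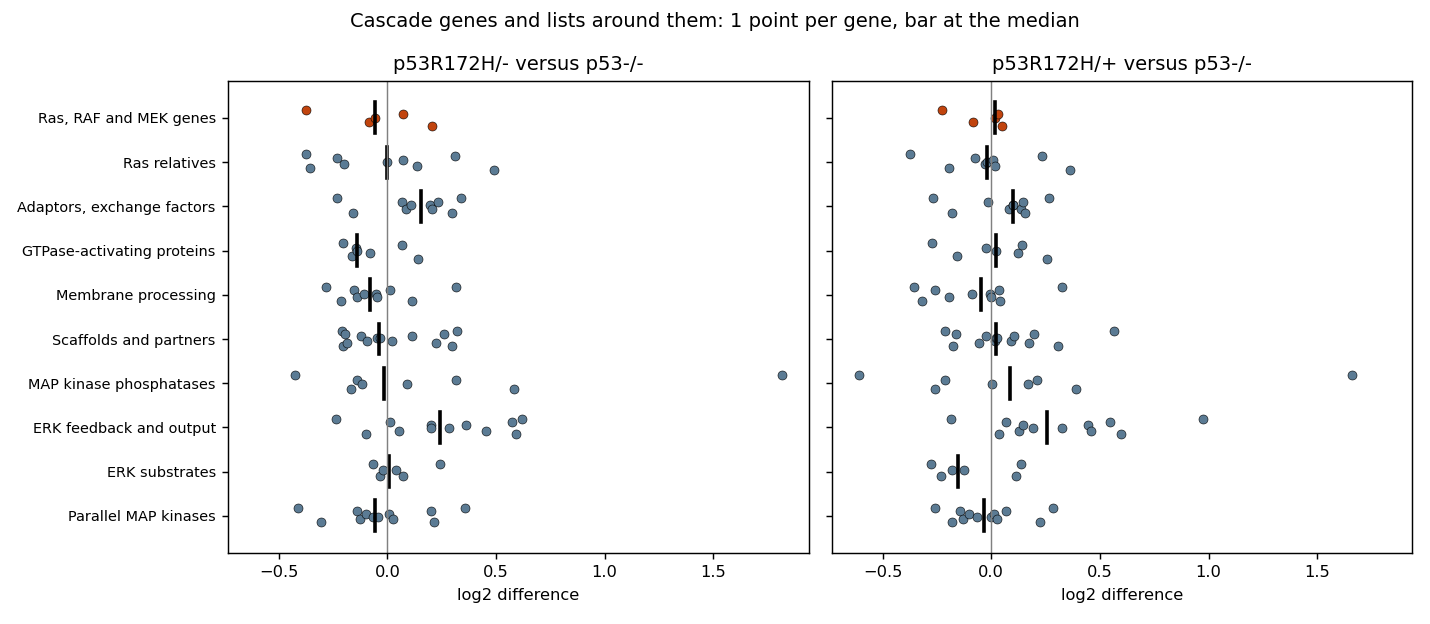
Log2 difference from p53-/- tumors of the 5 cascade genes (orange) and of the tested genes of 9 lists around them (blue), for p53R172H/- tumors on the left and p53R172H/+ tumors on the right. Each point is a gene, spread vertically for legibility, and each bar is the list's median. The cascade genes lie between -0.37 and 0.20 on the left. Dusp6, known from earlier results of these data, is the point at 1.82 among the phosphatases.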

How the data were processed

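Biotinylated cRNA of 9 oral tumors was measured on Affymetrix arrays, per the labels' protocols. Deposited was a linear intensity for each probe set, made by the authors with MAS5, per the submitters' processing notes. Its version and scaling were not given in the sources used here. Members and the gene lists were chosen with earlier results of these data known.

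Of 45101 probe sets, 34945 had 1 gene symbol. Signals were floored at the 20th percentile (52.6 units) and log2-transformed on the deposited scale. The probe set with the highest mean log2 signal stood for a gene, and genes under the median (113 units) were left out. limma 3.58.1 (R 4.3.3, lmFit, eBayes with a variance trend) was fitted to all 9 arrays, with p-values adjusted by Benjamini-Hochberg over 12167 genes, and again over all 34945 probe sets. Intervals cover 95%. The number of arrays, 3 per group, limits the precision. Ratios within arrays, added after the signals were seen, were compared by exact permutation tests. The fit was tested on simulated data.

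Named are the members and the 2 genes most like each member. Of each list, up to 3 genes with the smallest p in either mutant group are named. Dusp6 and Spry2 were named because they were known from earlier results of these data. Promoter sequences come from RefSeq (GRCm38.p6). No protein sequences were used here. The targeted gene is not reported here, so labels were not checked against it. The alternatives are given at the end.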

Additional observations from a re-analysis of the deposited data

How the results depend on the processing

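No member passed an adjusted p of 0.05 under any alternative. Apart from the ratios and the fits that left out an array, 965 values were recomputed, of which 939 kept their direction and side of the threshold and 26 changed sign; 0 members or named genes passed the threshold. In p53R172H/- against p53-/- tumors, Map2k1 and the brightest Map2k2 probe set kept their direction in all of them, and the second Map2k2 probe set, 1460636_at, did not. The cause of the changes was not tested. Over all genes, the muscle covariate gave 22 calls in p53R172H/- against p53-/- tumors and 4 for both mutant groups, and leaving out 1 array gave 0 to 1 (1 without p53R172H/+ tumor 3) for both.

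For p53R172H/- against p53-/- tumors, division by array medians, which moved the median of all genes from -0.033 to 0.036, gave Nras 0.012, Mknk2 0.049 and Braf 1435480_at 0.0094. The mean over a gene's probe sets gave Nras 0.085, Araf 0.11, Rps6ka3 -0.020, Mknk2 0.021 and Elk4 -0.068. The RNA integrity covariate gave Mknk2 0.11, Nras 1422687_at -0.051, Braf 1435480_at 0.064 and Map2k2 1460636_at 0.051.

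For p53R172H/+ against p53-/- tumors, division by medians gave Braf 1435480_at 0.049 and Braf 1458641_at 0.037, quantile normalization gave Mapk13 -0.0014, and the mean over probe sets gave Nras 0.030 and Rps6ka3 -0.021. The muscle covariate gave Map2k1 -0.014 and Braf 1435480_at 9e-04. The integrity covariate gave Mknk2 0.031, Braf 1435480_at 0.13 and Map2k2 1460636_at 0.16. For both mutant groups, Araf was 0.050 after division by medians, 0.13 as the mean over probe sets and 0.010 with the integrity covariate, Nras was 0.057 as the mean over probe sets, and the ratio of Braf 1458641_at to the brightest was 0.0001 after quantile normalization.

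Leaving out each array in turn changed the sign of these small differences. In p53R172H/- against p53-/- tumors the ranges were -0.13 to 0.025 for Nras, -0.19 to 0.016 for Fntb, -0.083 to 0.067 for Mknk2, -0.031 to 0.14 for Nras 1422687_at and -0.13 to 0.019 for Braf 1435480_at. In p53R172H/+ against p53-/- tumors they were -0.048 to 0.11 for Araf, -0.082 to 0.15 for Braf, -0.068 to 0.15 for Map2k1, -0.043 to 0.14 for Rasa4, -0.063 to 0.098 for Mapk13, -0.17 to 0.014 for Nras 1422687_at, -0.082 to 0.020 for Braf 1435480_at, -0.083 to 0.050 for Braf 1458641_at and -0.19 to 0.039 for Map2k2 1460636_at. For both mutant groups they were -0.15 to 0.012 for Nras, -0.12 to 0.039 for Araf and -0.0040 to 0.11 for Braf. Between the mutant groups they were -0.032 to 0.074 for Nras and -0.073 to 0.16 for Braf. Map2k2 kept its sign, at -0.42 to -0.31 in p53R172H/- tumors and -0.29 to -0.16 in p53R172H/+ tumors. Among ratios, Nras 1422687_at ranged from -0.044 to 0.039 and Braf 1435480_at from -0.14 to 0.0002 in p53R172H/+ tumors, and Braf 1458641_at from -0.11 to 0.13 in p53R172H/- tumors, -0.11 to 0.028 in p53R172H/+ tumors and -0.078 to 0.037 over both.

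Over 9 pairs of tumors of the same number, the r of their deviations from group means was -0.50 to 0.24. Of these, 4 were over 0.1, and 7 of 18 best matches shared the number. The labels do not say that the numbers pair tumors, and so few correlations cannot decide it. With the tumor number as a replicate block, 0 genes were called in each comparison and the smallest adjusted p of a member was 0.198, for Map2k2 in p53R172H/- tumors. The comparison of both mutant groups uses all arrays, so a fit of only the arrays compared was not run for it.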
